A study of Mus musculus with 6 samples.

Results

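Transcription factor genes that act early in fat cell formation, before the master regulator PPARG takes over, were followed in a SWELL1 knockout of a mouse preadipocyte line. The 10 genes were Cebpb, Cebpd, Klf4, Klf5, Klf9, Ebf1, Ebf2, Stat5a, Stat5b and Zfp423, and each was taken as the row of the deposited table that carried its symbol. Of these 10 genes 9 had a row, among 31097 rows in all, and no such row carried another gene name. The expression of Cebpb was not analysed here. The 3 SWELL1 KO libraries came from 3T3-F442A cells in which the SWELL1 gene (Lrrc8a, which codes for part of an anion channel that opens when cells swell) had been targeted with CRISPR/Cas9, and the 3 WT libraries from cells in which it was intact. The labels call both adipocyte lines. Both groups were grown in RPMI with 10% FBS, and no label names a differentiation step. Each group's 3 libraries are labelled as biological replicates, and the number of KO clones behind them is not stated. KO sample names also bear an unexplained mark, D3, that WT sample names do not, so genotype and that mark cannot be told apart.

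Adipogenesis runs as a relay of transcription factors. Hormonal signals induce C/EBPβ and C/EBPδ within hours, KLF factors and STAT5 act alongside them, and together they switch on Pparg and Cebpa, which then hold the fat cell state. EBF1, EBF2 and ZFP423 mark or commit preadipocytes. The 3T3-F442A line is known for needing growth hormone, which signals through JAK2 and STAT5, to become fat.

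Values are FPKM (fragment counts scaled by transcript length and by library size), a unit inferred from the submitters' use of Cufflinks and from the values. Estimated depth was 18300000 to 25900000 fragments in KO libraries and 17100000 to 20800000 fragments in WT libraries. The targeted gene could not be read alone, since Lrrc8a shares its row with Nup188 and Phyhd1 (27.3 to 28.8 FPKM in KO, against 32.5 to 35.0 FPKM in WT), so it does not check the labels. The summed level of 10 preadipocyte and fibroblast markers was 7910 to 8070 FPKM in KO and 7680 to 8550 FPKM in WT. The summed level of 9 adipocyte markers was 9.03 to 10.4 FPKM in KO and 144 to 203 FPKM in WT, most of the WT sum being Fabp4. Lep was at 0 in all 6 libraries, and Cfd and Cebpa were at 0 in all KO libraries. Of other cell types, macrophage and leukocyte markers summed to 0.127 to 0.343 FPKM in KO and 1.3 to 1.64 FPKM in WT. Osteoblast and chondrocyte markers summed to 23.1 to 24.1 FPKM in KO and 11.3 to 14.8 FPKM in WT. Endothelial markers summed to 2.06 to 2.45 FPKM in KO and 0.456 to 0.659 FPKM in WT, skeletal muscle markers to 0.598 to 0.964 FPKM in KO and 0.662 to 0.753 FPKM in WT, and epithelial markers to 1.69 to 1.78 FPKM in KO and 4.26 to 4.49 FPKM in WT. Within these sums the markers differed from one another. Sox9, a cartilage factor, was at 12.6 to 14.0 FPKM in KO and at 1.45 to 2.11 FPKM in WT. Runx2, of the same list, was at 9.09 to 10.3 FPKM in KO and at 9.15 to 13.4 FPKM in WT. The keratin gene Krt8 was at 1.17 to 1.49 FPKM in KO and at 0 in all WT libraries. Krt7 was at 0.205 to 0.525 FPKM in KO and at 4.21 to 4.48 FPKM in WT. The macrophage gene Lyz2 was at 0.0948 to 0.317 FPKM in KO and at 1.29 to 1.64 FPKM in WT. The muscle gene Myf5 was at 0 in all KO libraries and at 0.26 to 0.406 FPKM in WT. Tnnt1, also a muscle marker, was at 0.598 to 0.964 FPKM in KO and at 0.256 to 0.464 FPKM in WT. Csf1r, Epcam, Acan, Myod1 and Myog were at 0 in all KO libraries and in all WT libraries, and the endothelial genes Kdr and Tek in all WT libraries. By the test defined below, which 65.2% of all tested rows passed (28.5% higher and 36.7% lower), 4 of 5 tested adipocyte markers were lower (Pparg, Adipoq and Plin1 tested only because of their WT level), and of 9 tested fibroblast markers 4 were higher and 5 lower. The part of these marker differences in the results below was not tested. In cultures sequenced in bulk, fewer cells of a type and less RNA per cell cannot be told apart.

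The early factors did not move as a block. Cebpd and Klf9, the most abundant of them in both groups, were 3.08-fold and 3.19-fold lower in KO, Ebf1 was 2.19-fold higher, and Klf4 did not pass the test. Of the 9 genes with a row, 7 reached the filter, a mean of 0.5 FPKM or more across the 6 libraries. Of these, 5 passed limma's test (Benjamini-Hochberg adjusted p under 0.05 over all 10515 tested rows), 2 higher and 3 lower in KO. Over all tested rows 65.2% passed, 28.5% higher and 36.7% lower, so the count of members is close to the share of the whole table. The median log2 fold change (KO minus WT, on log2(FPKM + 0.5), a scale that understates the change of low genes) was -0.11 over the 6 tested members with no library at 0, and -0.07 over the 9911 such rows of the table. Groups did not overlap for the same 5 tested members, and for 71.8% of all tested rows.

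**Figure D1:**
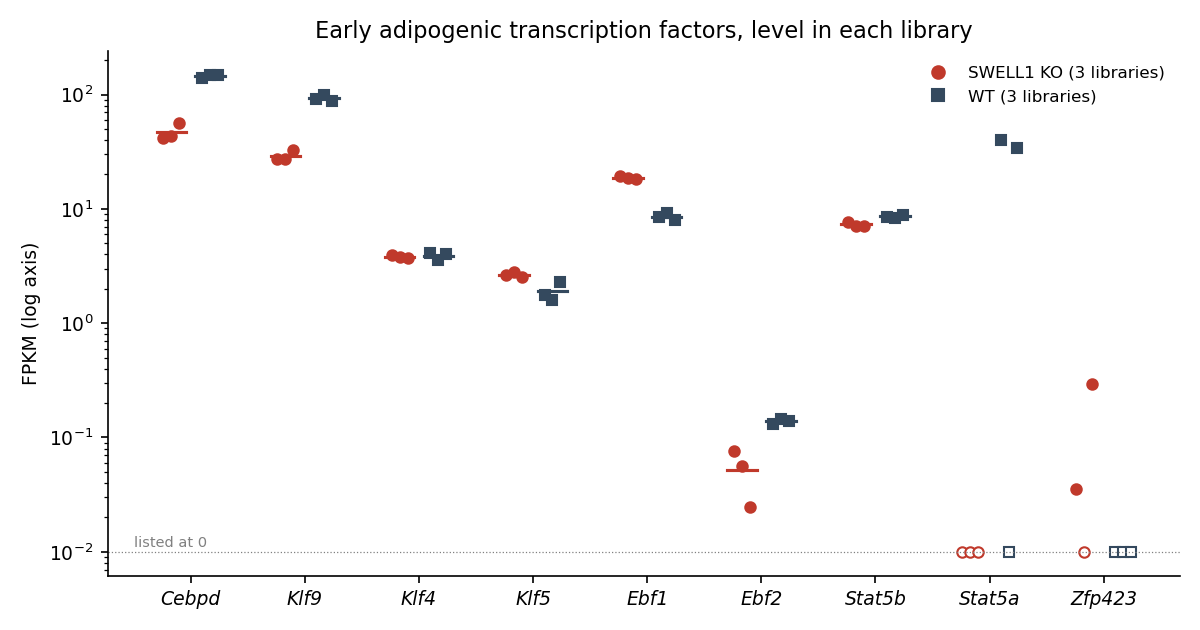
FPKM of each member (log axis) in the 3 SWELL1 KO libraries (circles) and the 3 WT libraries (squares), with bars for group means where no library is at 0 and open symbols on the dotted line for libraries listed at 0. Cebpd and Klf9 lie lower and Ebf1 higher in KO with no overlap, while Klf4 overlaps.

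Cebpd encodes C/EBPδ, a basic leucine zipper factor that hormones induce at the start of adipogenesis. It lies on chromosome 16 from 15887286 to 15891031 (GRCm38, plus strand). It stood at 41.9, 43.8 and 56.6 FPKM in KO replicates 1, 2 and 3, against 140.0, 149.3 and 148.2 FPKM in WT replicates 1, 2 and 3. All KO libraries lay far below all WT libraries, and KO replicate 3 was the highest of its group. The mean was 47.4 ± 7.99 FPKM in KO and 145.8 ± 5.11 FPKM in WT (SD, n = 3 each; log2 fold change -1.62, SE 0.12, limma adjusted p = 8.43e-05). This change was larger in size than that of 92.3% of tested rows. Of the annotated exon bases of Cebpd, 562 are also exon of Spidr, a DNA repair gene on the other strand. Spidr, whose row carries its older symbol 2310008H04Rik, stood at 9.72, 9.52 and 9.81 FPKM in KO and at 21.7, 22.3 and 22.5 FPKM in WT. No label says that reads were counted by strand, and how many Cebpd fragments came from Spidr was not tested.

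Among 5 other C/EBP family genes, 3 were tested and 1 fell, where 36.7% of all tested rows fell. That gene, Ddit3, encodes CHOP, which pairs with C/EBP proteins and keeps them from their usual sites. It had 123.1, 100.4 and 117.8 FPKM in KO, against 171.7, 164.9 and 167.0 FPKM in WT (limma adjusted p = 0.00134). Cebpg, a small family member without an activation domain, was at 13.7, 17.3 and 16.1 FPKM in KO and at 16.8, 20.1 and 21.0 FPKM in WT, and did not pass (adjusted p = 0.074). Cebpa, which C/EBPδ helps to switch on, was listed at 0 in every KO library, against 0.157, 0.121 and 0.111 FPKM in WT, below the filter in both groups. Cebpz did not pass (adjusted p = 0.259), and Cebpe had 0.0931, 0 and 0.0973 FPKM in KO and was listed at 0 in every WT library.

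Klf9 encodes a zinc finger factor that glucocorticoids induce and that is known to act on the Pparg promoter in mouse preadipocytes. It lies on chromosome 19 from 23141226 to 23168134 (plus strand). It stood at 27.2, 27.5 and 32.4 FPKM in KO replicates 1, 2 and 3, against 90.7, 98.5 and 88.3 FPKM in WT replicates 1, 2 and 3. As for Cebpd, the groups lay far apart and KO replicate 3 was the highest of the KO libraries. The mean was 29.0 ± 2.94 FPKM in KO and 92.5 ± 5.35 FPKM in WT (SD, n = 3 each), and of the tested members this was the most negative log2 fold change among those with no library at 0 (-1.66, SE 0.08, limma adjusted p = 2.31e-05).

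Klf4 (chromosome 4, 55527143 to 55532466, minus strand) and Klf5 (chromosome 14, 99298691 to 99315036, plus strand) were far less abundant. Klf4, whose product is known to switch on Cebpb together with KROX20 in mouse preadipocytes, stood at 3.97, 3.76 and 3.75 FPKM in KO and at 4.07, 3.55 and 4.003 FPKM in WT. The groups overlapped (log2 fold change -0.01, 95% interval -0.19 to 0.16, limma adjusted p = 0.872). Klf5, which C/EBPβ and C/EBPδ are known to induce and which then acts on Pparg, stood at 2.64, 2.78 and 2.55 FPKM in KO and at 1.78, 1.61 and 2.30 FPKM in WT. Its groups did not overlap, and WT replicate 3 came closest to KO. The log2 fold change was 0.41 (SE 0.12, limma adjusted p = 0.0269), and the call was lost without any 1 library other than WT replicate 3 (adjusted p up to 0.0799).

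The promoters of Klf9, which fell, and Klf4, which did not pass, are shown as a description. They were picked with their values known, and no link between letters and values was tested. Windows are RefSeq's (GRCm38.p6), 250 bases before to 50 bases after a start site, read 5′ to 3′ along the gene. Capitals mark every match, on either strand, to the GC box (letters GGGCGG), the KLF-type CACCC box, the CCAAT box, the TATA box (letters TATAAA), the core of a CREB site (letters TGACG), a STAT palindrome (letters TTCNNNGAA) and the glucocorticoid response element. Matches may overlap, as where CCAAT on both strands runs together.
Klf9, chr19:23140976-23141275, plus strand: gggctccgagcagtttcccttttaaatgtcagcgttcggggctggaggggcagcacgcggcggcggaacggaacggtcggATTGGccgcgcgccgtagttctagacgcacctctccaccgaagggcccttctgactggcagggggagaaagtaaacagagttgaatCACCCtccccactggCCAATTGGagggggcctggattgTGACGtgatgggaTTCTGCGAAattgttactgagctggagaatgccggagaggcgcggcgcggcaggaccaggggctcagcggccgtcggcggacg
Klf4, chr4:55532426-55532725, minus strand: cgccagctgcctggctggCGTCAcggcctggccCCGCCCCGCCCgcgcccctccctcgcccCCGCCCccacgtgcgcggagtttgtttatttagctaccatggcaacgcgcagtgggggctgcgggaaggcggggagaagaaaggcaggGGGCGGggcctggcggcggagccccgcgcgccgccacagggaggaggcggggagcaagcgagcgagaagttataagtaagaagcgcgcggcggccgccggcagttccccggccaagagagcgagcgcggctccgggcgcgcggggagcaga
The Klf9 window held 3 CCAAT matches, 1 CACCC, 1 TGACG and 1 STAT palindrome at 33 bases before the start, and no GC box. The Klf4 window held 4 GC boxes and 1 TGACG. Of 32851 such windows over all genes, 37.4% held CCAAT, 57.5% CACCC, 20.8% TGACG, 8.3% the STAT palindrome, 35.7% the GC box, 13.6% TATAAA and 0.0487% the glucocorticoid element. The last motif was in no window of the 7 members with a promoter sequence (Cebpb, Klf4, Klf9, Ebf1, Stat5a, Stat5b and Zfp423). A match is a description of letters and not evidence of binding.

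Within the KLF family, the balance between members differed between the groups. The summed level of 16 KLF genes was 151 ± 3.56 FPKM in KO and 267 ± 4.8 FPKM in WT (SD, n = 3 each). Klf9 made up 19.3 ± 2.37% of that sum in KO and 34.7 ± 2.48% in WT (SD, n = 3 each). It ranked 2 in KO, behind Klf6, and 1 in WT. Klf6 itself, another factor that promotes adipogenesis, was at 34.4, 32.2 and 33.4 FPKM in KO and at 32.9, 34.6 and 37.4 FPKM in WT and did not pass (limma adjusted p = 0.349). Of 8 other KLF genes tested, 3 fell and 0 rose, a share of falls near the 36.7% of all tested rows. Klf12, which reached the filter only through WT, had 0.383, 0.174 and 0.338 FPKM in KO, against 1.85, 1.62 and 2.12 FPKM in WT (limma adjusted p = 0.000278). Klf3 and Klf7, both known to restrain adipogenesis, were 2.7-fold and 2.69-fold lower (adjusted p = 0.000391 and 1.15e-05). The share of Klf4 was 2.54 ± 0.0363% in KO and 1.45 ± 0.0993% in WT although its own level did not pass the test, since a share moves with the rest of the sum.

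**Figure D2:**
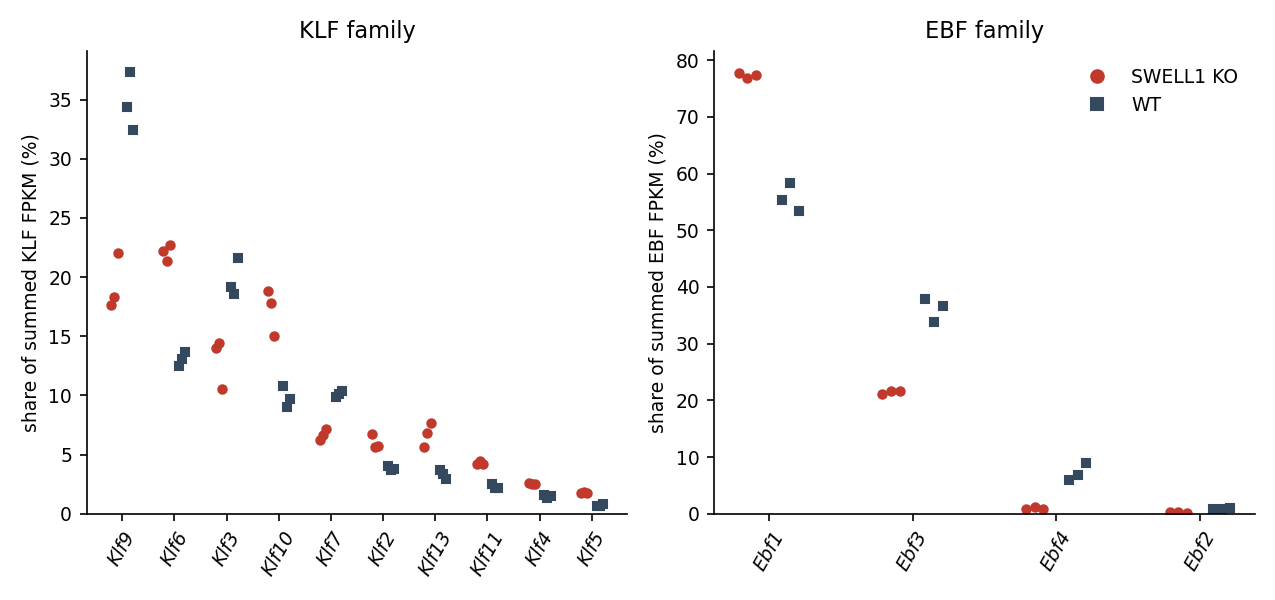
Share of the summed FPKM of the KLF family (left, 10 of 16 genes drawn) and of the EBF family (right) taken by each gene, in percent, for each SWELL1 KO library (circles) and WT library (squares). Klf9 takes 17.6 to 22.0% in KO and 32.4 to 37.3% in WT, and Ebf1 76.9 to 77.8% in KO and 53.4 to 58.4% in WT.

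Ebf1 encodes a helix-loop-helix factor of preadipocytes that binds the promoters of Pparg and Cebpa. It lies on chromosome 11 from 44617317 to 45008091 (plus strand). It stood at 19.2, 18.8 and 18.2 FPKM in KO replicates 1, 2 and 3, against 8.41, 9.18 and 8.06 FPKM in WT replicates 1, 2 and 3. All KO libraries were above all WT libraries, and the spread within each group was small. The mean was 18.7 ± 0.507 FPKM in KO and 8.55 ± 0.57 FPKM in WT (SD, n = 3 each; log2 fold change 1.09, SE 0.06, limma adjusted p = 3.05e-05). Among the members no other rise was as large. An annotated antisense transcript, Gm12158, overlaps the gene and was not told apart from it.

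Its relatives Ebf3 and Ebf4 were less abundant. Ebf3 was at 5.19, 5.30 and 5.08 FPKM in KO and at 5.74, 5.33 and 5.54 FPKM in WT and did not pass (limma adjusted p = 0.209). Ebf4 had 0.206, 0.285 and 0.196 FPKM in KO, against 0.893, 1.08 and 1.36 FPKM in WT (adjusted p = 0.00107), reached the filter only through WT, and was not tested with a filter at 1 FPKM. Ebf2 (chromosome 14, 67233292 to 67430918, plus strand), which marks preadipocytes of brown fat, was near the detection limit and under the filter. It stood at 0.0759, 0.0558 and 0.0248 FPKM in KO and at 0.131, 0.144 and 0.140 FPKM in WT, which over its longest transcript of 5204 bases is about 7.5, 7.5 and 2.4 fragments in KO and 11.7, 14.3 and 15.2 fragments in WT. With no filter on low values, Ebf2 had a log2 fold change of -0.21 (SE 0.04, adjusted p = 0.0104). Ebf1 made up 77.4 ± 0.46% of the summed EBF level in KO and 55.7 ± 2.5% in WT.

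The start region of Ebf1, the only tested member that rose at least 2-fold, has a pair of annotated windows, which are shown with the same capitals as above to set beside those of Klf9 and Klf4.
Ebf1 upstream start, chr11:44617850-44618149, plus strand: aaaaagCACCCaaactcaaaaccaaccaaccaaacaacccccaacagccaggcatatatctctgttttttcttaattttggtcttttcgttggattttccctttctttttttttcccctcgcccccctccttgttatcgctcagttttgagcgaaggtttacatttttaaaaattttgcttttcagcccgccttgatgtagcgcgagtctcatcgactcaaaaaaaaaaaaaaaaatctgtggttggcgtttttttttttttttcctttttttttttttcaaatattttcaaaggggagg
Ebf1 downstream start, chr11:44619978-44620277, plus strand: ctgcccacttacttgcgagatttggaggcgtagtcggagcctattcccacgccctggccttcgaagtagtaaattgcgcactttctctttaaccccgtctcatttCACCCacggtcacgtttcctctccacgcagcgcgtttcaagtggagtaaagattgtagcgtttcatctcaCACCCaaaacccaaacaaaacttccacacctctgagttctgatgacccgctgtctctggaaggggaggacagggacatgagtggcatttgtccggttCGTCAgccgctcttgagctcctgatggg
The upstream window held 36.7% G and C and 1 CACCC match, and the downstream window 53.0% G and C, 2 CACCC and 1 TGACG. Neither held a GC box or CCAAT. The Klf9 and Klf4 windows held 63.3% and 74.3% G and C, and the median over all 32851 windows was 52.7%. The table has a single value for Ebf1, so use of the start sites was not measured.

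The STAT5 genes encode transcription factors that JAK2 activates after growth hormone or prolactin binds. They are neighbours on chromosome 11, with Stat5b from 100780731 to 100850724 (minus strand) and Stat5a from 100859351 to 100885169 (plus strand), 8627 bases apart. Stat5b stood at 7.74, 7.15 and 7.11 FPKM in KO and at 8.56, 8.30 and 8.91 FPKM in WT. The groups did not overlap, yet the difference was small (log2 fold change -0.21, SE 0.06, limma adjusted p = 0.0163). The call was lost under median-ratio scaling (adjusted p = 0.0565), under equal FPKM sums (adjusted p = 0.254), and without KO replicate 2 or WT replicate 3 (adjusted p = 0.0561 and 0.0557). Stat5a was listed at 0 in each of the 3 KO libraries, against 39.9, 0 and 34.3 FPKM in WT replicates 1, 2 and 3. It passed the filter only through these WT libraries and did not pass the test (adjusted p = 0.0788). Leaving out any other single library gave adjusted p from 0.157 to 0.209. Without WT replicate 2 the adjusted p was 3.46e-05. That fit drops the only WT library at 0, so it is no support for a difference. An exact 0 is not a safe absence in this table: among the 8117 rows with 5 FPKM or more somewhere, 231 held a 0 although a replicate of that library had 5 FPKM or more. No fold is given for Stat5a. Its exons share 72 bases (1.01%) with Stat3 on the other strand, and Stat5a and Stat5b are close paralogs. Among the WT libraries, WT replicate 2, with Stat5a listed at 0, had the lowest Stat5b and the highest Stat3. Stat3 was at 100.8, 110.8 and 97.3 FPKM in WT replicates 1, 2 and 3. Both genes were lower in every KO library than in any WT library. Whether Stat5a fragments were counted under another gene was not tested.

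Genes around STAT5 changed widely, in both directions. All 10 tested receptor, kinase and STAT genes with a row of their own passed, 3 higher and 7 lower, against 65.2% of all rows (median log2 fold change -0.69). Jak3, which shares its row with Insl3 and is outside this count, did not pass (limma adjusted p = 0.0928). Ghr, the growth hormone receptor, rose to 97.0, 91.3 and 87.8 FPKM in KO, against 51.7, 50.5 and 45.2 FPKM in WT (limma adjusted p = 9.21e-05). Jak2, the kinase that this receptor uses, fell to 9.12, 11.3 and 9.88 FPKM in KO, against 30.1, 31.6 and 26.2 FPKM in WT (adjusted p = 7.12e-05). Among the listed receptor genes of the interleukin 6 family, Il6st, the shared chain, was 3.96-fold lower, Lifr 7.39-fold lower and Osmr 2.65-fold lower. Stat6, which acts downstream of interleukin 4 receptors, rose 2.93-fold, and the interferon gamma receptor gene Ifngr1 rose 2.59-fold. Stat3 had 58.4, 58.9 and 63.1 FPKM in KO and 100.8, 110.8 and 97.3 FPKM in WT.

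Of 9 tested genes known as STAT5 targets or feedback inhibitors, 6 fell and 2 rose, against 36.7% lower and 28.5% higher over all tested rows (median log2 fold change -1.32). Cish, a feedback inhibitor long used as a readout of STAT5 in other cells, had 1.09, 1.08 and 0.826 FPKM in KO, against 6.55, 4.48 and 4.56 FPKM in WT (limma adjusted p = 0.00017). The signalling inhibitors Socs2 and Socs3 were 2.82-fold and 5.59-fold lower, and the kinase gene Pim1 was 4.24-fold lower. Socs1 rose 1.91-fold and the cyclin gene Ccnd1 1.68-fold. Igf1, another target, was at 0.722, 0.511 and 0.143 FPKM in KO and at 0.715, 0.414 and 0.635 FPKM in WT and did not pass (adjusted p = 0.504). Bcl6, among the 6 that fell, was 2.55-fold lower. The list does not separate genes that STAT5 raises from genes that it lowers. The count and the median are therefore no readout of STAT5 activity, which was not tested. Several of these genes also answer to other STAT proteins.

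**Figure D3:**
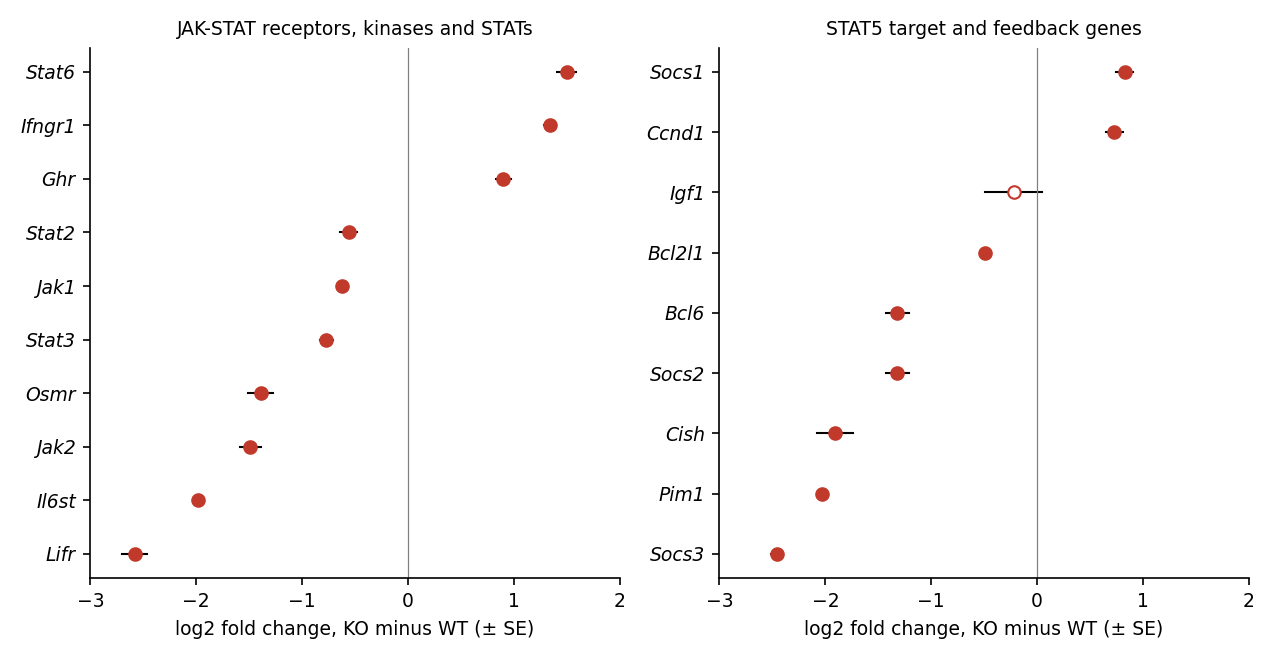
Log2 fold change (KO minus WT, points, with bars of 1 SE) of the tested JAK-STAT receptor, kinase and STAT genes (left) and of known STAT5 target and feedback genes (right), with filled points for adjusted p under 0.05. All 10 genes on the left passed, 3 of them higher, and on the right Igf1 alone did not pass. The members Stat5a and Stat5b are not drawn.

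Zfp423 (chromosome 8, 87661810 to 87959595, minus strand) encodes a zinc finger factor of preadipocyte commitment that works with the SMAD proteins of BMP signalling. It stood at 0.0357, 0 and 0.295 FPKM in KO replicates 1, 2 and 3 and was listed at 0 in each WT library, so it was under the filter and is described by these values alone. Its antagonist Zfp521 was better covered and rose to 5.90, 4.397 and 4.62 FPKM in KO, against 3.16, 3.03 and 3.25 FPKM in WT (limma adjusted p = 0.00539). Of 11 tested BMP pathway and ZFP423 partner genes, 1 rose (Zfp521) and 2 fell, below the 65.2% of all tested rows that passed (median log2 fold change 0.03). The BMP response genes Id2 and Id3 were 2.06-fold and 1.76-fold lower (adjusted p = 0.000102 and 0.000126). The receptor genes Bmpr1a and Bmpr2 did not pass (adjusted p = 0.13 and 0.374). Under quantile normalization and under equal FPKM sums 4 genes of this list passed as higher.

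Glucocorticoid and cAMP are known to induce early factors, and genes of both pathways were measured. Nr3c1, the glucocorticoid receptor, was at 33.9, 32.3 and 31.1 FPKM in KO and at 34.1, 35.5 and 33.9 FPKM in WT and did not pass (limma adjusted p = 0.141). Of 10 tested genes of the list of that receptor and its targets, 5 fell and 3 rose, against 36.7% lower and 28.5% higher over all tested rows. Per1 was 4.66-fold and Lcn2 5.94-fold lower, and the metallothionein gene Mt2 was listed at 0 in each KO library, against 11.2, 7.52 and 8.11 FPKM in WT, and was tested only because of its WT level. Tsc22d3, which encodes the glucocorticoid-induced leucine zipper protein, rose 1.56-fold, Hsd11b1, whose enzyme regenerates active glucocorticoid, rose 2.88-fold, and Dusp1 rose 1.74-fold. In the cAMP and CREB list 5 of 13 tested genes fell and 2 rose, no more than the 65.2% of all tested rows that passed, and under median-ratio scaling and equal FPKM sums 4 and 5 passed as higher. The phosphodiesterase genes Pde4b and Pde4d, which break down cAMP, were 10.2-fold and 3.52-fold lower, and the immediate early gene Nr4a1 had 17.7, 22.8 and 49.7 FPKM in KO, with KO replicate 3 highest here too, against 119.8, 123.1 and 129.4 FPKM in WT. Prkar1a rose 1.14-fold. Crtc1 rose 1.16-fold (adjusted p = 0.0334), a call lost in 7 of the alternative fits (adjusted p from 0.00544 to 0.103 over all fits). Creb1 did not pass (adjusted p = 0.103).

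Of 15 further tested genes that promote adipogenesis, 6 fell and 2 rose, a share below the 65.2% of all tested rows (median log2 fold change -0.13, against -0.07 over all rows). The AP-1 gene Fosl2 was 4.12-fold, the histone demethylase gene Kdm4b 2.63-fold and the Mediator subunit gene Med1 2.06-fold lower, while Egr2, which encodes KROX20, the partner of KLF4, rose to 2.024, 2.35 and 2.29 FPKM in KO, against 0.908, 0.979 and 0.783 FPKM in WT (limma adjusted p = 0.000364). Ep300, a histone acetyltransferase, rose 1.69-fold. Fosl2 spread widely in WT, at 145.6, 318.2 and 190.3 FPKM, against 51.0, 49.1 and 58.7 FPKM in KO. Of 16 tested genes that restrain adipogenesis, 7 fell and 3 rose, a share near that 65.2% (median log2 fold change -0.24). Trib3, a pseudokinase, fell 4.57-fold beside Klf3 and Klf7, and Smad3, Zfp521 and Foxo1 rose by 0.95, 0.58 and 0.48 on the log2 scale. Gata2, a brake on Pparg, was at 2.21, 1.91 and 1.74 FPKM in KO and at 2.14, 1.77 and 1.84 FPKM in WT (adjusted p = 0.891).

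Downstream of these factors, Pparg had 0.182, 0.0689 and 0.130 FPKM in KO, against 2.49, 1.96 and 1.05 FPKM in WT (limma adjusted p = 0.00136). It reached the filter only through the WT libraries, as did Adipoq and Plin1, so that a fall was built into their being tested. With a filter at 1 FPKM, 6 genes of PPARG and the fat cell were tested, of which 3 fell and 0 rose (median log2 fold change -0.66), against 36.7% of all rows lower at the reported filter. At that reported filter 6 of 9 fell, the 3 genes that passed through WT included. Fabp4, which carries fatty acids in adipocytes, had 2.45, 3.48 and 4.37 FPKM in KO, against 188.2, 156.2 and 132.7 FPKM in WT. Dgat2, which makes triglyceride, was 5.77-fold lower (adjusted p = 1.22e-05), and the hormone gene Adipoq had 0.0443 FPKM in KO replicate 1 and 0 in the other KO libraries, against 1.87, 1.55 and 1.26 FPKM in WT. Lpl, a lipase gene also expressed in preadipocytes, did not pass (adjusted p = 0.0927). The list shares Pparg, Fabp4 and others with the adipocyte markers given above and is no separate sample of the cells.

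In order of level per length, the members of KO libraries ran Cebpd, Klf9, Ebf1, Stat5b, Klf4 and Klf5, and no neighbours in this order overlapped in their libraries. Among the members above 0 in every WT library, Cebpd and Klf9 also came highest in WT, and Stat5a, with a WT library at 0, was not ranked. Stat5b (8.30 to 8.91 FPKM) and Ebf1 (8.06 to 9.18 FPKM) overlapped there, whereas in KO Stat5b (7.11 to 7.74 FPKM) lay below Ebf1 (18.2 to 19.2 FPKM). Klf4 and Klf5 came next in WT without overlap, and Ebf2 last.

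**Figure D4:**
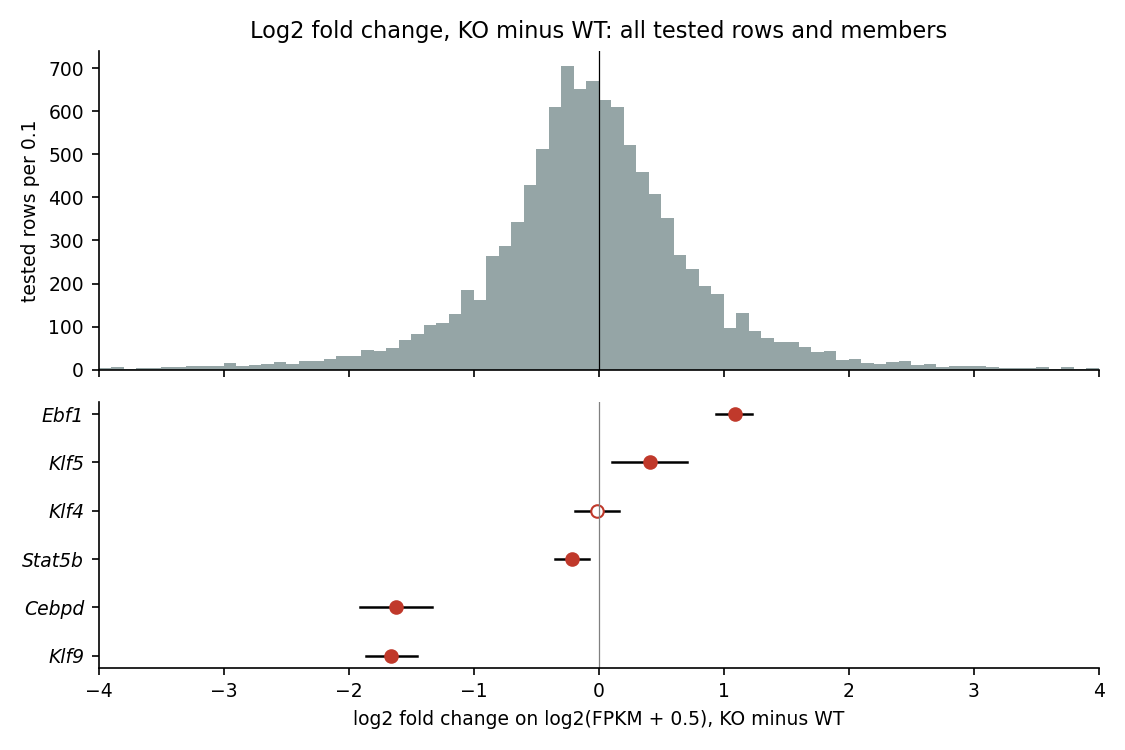
Top, number of the 10515 tested rows per bin of 0.1 of log2 fold change (KO minus WT), with 89 rows beyond 4 in either direction not drawn. Bottom, the 6 tested members with no library at 0, with 95% intervals and filled points for adjusted p under 0.05. Cebpd and Klf9 lie in the lower tail at -1.62 and -1.66, Ebf1 at 1.09, and Klf4 at -0.01.

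**Figure D5:**
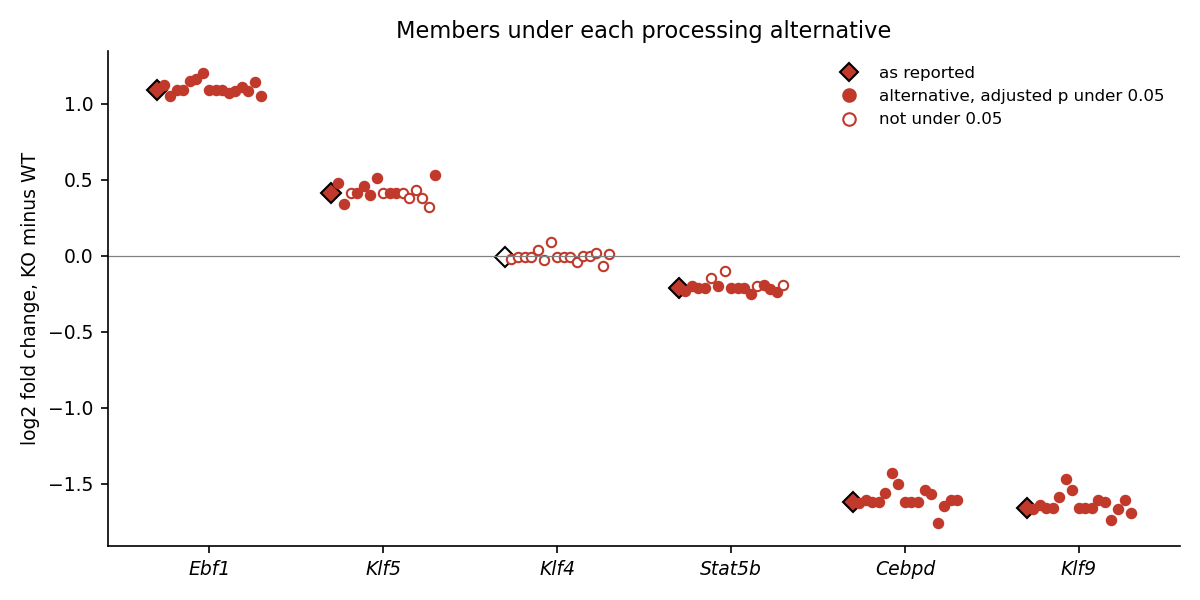
Log2 fold change (KO minus WT) of the 6 members with no library at 0 under the reported fit (diamonds) and each alternative (circles), filled where the adjusted p was under 0.05. Ebf1, Cebpd and Klf9 are filled throughout, Klf4 is open throughout, and Klf5 and Stat5b are filled in some fits and open in others.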

How the data were processed

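RNA sequencing of 3 SWELL1 KO and 3 WT libraries was analysed from 1 table that holds 31097 rows and 6 libraries. The deposited values are FPKM by inference, as no label or header names the unit. Per the submitters' processing notes the tools include TopHat and Cufflinks 2.02 and the build is GRCm38, with no settings stated. Rows were found by symbol, after splitting names at commas. Rows shared with another gene (small RNAs and numbered clones aside) were left out of lists. The members and lists were chosen with earlier results of these data known. Some list genes are not reported here and enter no list count.

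Rows averaging 0.5 FPKM or more were tested, as deposited, on log2(FPKM + 0.5) with limma 3.58.1 (R 4.3.3), with a mean-variance trend, two-sided, Benjamini-Hochberg adjusted, threshold 0.05. No source says that replicate numbers pair libraries across groups. The p-values reflect spread among the 6 libraries, which may be technical. Depth was estimated from the values above 0 of 1183 genes whose only transcript has 2500 bases or more (GENCODE M21, GRCm38). The most common value, after scaling by length, was taken as the worth of 1 fragment. That pile held 53 to 80 genes per library. The fit was tested on simulated data with normal noise, in which 67, 67 and 66 of 10515 rows were changed 1.5-fold, 2-fold and 4-fold. It recovered 65.7%, 82.1% and 93.9% of them, and 6.4% of its calls were false. A far larger share of rows passed in the real data, so the check does not cover that setting.

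All members were named. From each list up to 3 genes per direction with the largest called change and no overlap were named, and other list genes where a sentence on a member needed them. Alternatives were pseudocounts of 0.1 and 1, no filter and a filter at 1 FPKM, 3 scalings (median ratio, quantile, and equal FPKM sums without the row AC166252.2, which took 16.7 to 23.71% of the sum in KO and up to 2.1% in WT), a replicate block, a robust fit, no trend, and leaving out each library. Python 3.11.15, numpy 2.4.6, pandas 2.3.3, scipy 1.17.1 and matplotlib 3.10.9 were used.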

Additional observations from a re-analysis of the deposited data

How the results depend on the processing

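Cebpd, Klf9 and Ebf1 kept their direction and their call under all 16 alternatives, with log2 fold changes (KO minus WT) without 1 library from -1.76 to -1.54, -1.74 to -1.61 and 1.05 to 1.14. Klf5 lost its call with no filter on low values (log2 fold change 0.41, adjusted p = 0.0501) and with the replicate block (0.41, adjusted p = 0.0632), and ranged from 0.32 to 0.53 without 1 library, where it passed in 1 of 6 fits. Stat5b lost its call under median-ratio scaling (-0.15) and equal FPKM sums (-0.10), and ranged from -0.25 to -0.19 without 1 library, passing in 4 of 6 fits. Klf4, never called, changed sign under median-ratio scaling (0.04) and equal FPKM sums (0.09), and ranged from -0.07 to 0.02 without 1 library. The adjusted p of Stat5a ranged from 3.46e-05 to 0.209 without 1 library, and was lowest without WT replicate 2, its only WT library at 0. The count of members past the threshold, 5 as reported, ranged from 3 to 5 without 1 library and was lowest without KO replicate 2. Equal FPKM sums moved the median of all rows by 0.11 log2 units. The cause of these changes was not tested. Same-numbered KO and WT libraries did not deviate together (correlations from -0.09 to 0.01 over rows), so the replicate block is reported as a setting only. It changed no call among the members other than that of Klf5. Depth limits Ebf2, which rests on few fragments in every library. Zfp423 rests mainly on KO replicate 3, with about 3.3, 0 and 26.5 fragments in KO replicates 1, 2 and 3 and 0 in each WT library.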
